A study of Danio rerio with 6 samples.

Results

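The 8 genes described here are immediate early genes of the Fos, Jun, Atf and Egr families, namely fosab, fosb and fosl1a, junba, junbb and jun, atf3, and egr1. They were taken by Ensembl identifier from the 32266 genes of the count table, and all 8 had counts in every sample. The first names on the list, fosab, egr1 and junba, had been noticed because their counts were among the largest falls in Atoh1b-depleted samples. These were thus chosen by their measured fold change without control 3, and the other 5 were added as relatives with results of these data known. Differences between controls and Atoh1b-depleted samples are therefore given for the 8 genes as a description. Where calls from a fit across all genes include some of the 8, they restate this choice and are no test of it.

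DsRed-positive cells were sorted from zebrafish embryos heterozygous for the pax8:DsRed transgene, a reporter that labels the nephric anlagen and the OEPD, the progenitor domain of inner ear and epibranchial placodes, and their transcripts were counted by RNAseq. Per the study's methods the embryos were of the AB wild-type line at late OEPD stages. Before sorting, chorions were removed with pronase and the embryos were dissociated in trypsin-EDTA on ice. The part of this handling in the levels below was not tested. There were 3 samples from wild-type embryos (controls 1, 2 and 3) and 3 from embryos injected at the one-cell stage with a morpholino against atoh1b (atoh1b-MO 2, 4 and 5), an antisense oligomer that depletes a transcription factor needed for early-born hair cells. Titles named atoh1b and were followed, although the genotype label of the injected samples names dlx3b/4b. No control morpholino is named in the labels, so injection as such and depletion of Atoh1b cannot be told apart. The 565 genes on unplaced scaffolds, where the study places atoh1b, had 0 counts, so the target itself was not checked. Whether samples came from separate clutches is not in the labels, and p-values then measure only the spread between these samples.

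Immediate early genes are transcribed within minutes of a stimulus without the need for new protein. Growth factors acting through Erk and the Srf-Elk complex induce them, as do cell stress and the enzymatic dissociation of tissue. Fos proteins pair with Jun proteins through a leucine zipper to form AP-1, a factor that binds DNA only as a dimer, and Jun proteins can also pair with each other or with Atf3. Egr1 binds DNA alone through zinc fingers and lies downstream of the same Erk signal.

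Total counts ranged from 24120228 to 37169850 per sample, so that 3 counts correspond to 0.0807 to 0.124 CPM (counts scaled to a common library total, with TMM factors). Control 3 stood apart from all other samples in its cell type markers. The study dismissed 1 wild-type sample that diverged, without naming it in the text used here, and control 3 is taken to be that sample from its markers. Nephric markers (6 genes) summed to 72.9 CPM in control 3 against 1425 to 1625 CPM in controls 1 and 2 and 1097 to 1608 CPM in atoh1b-MO samples. Otic markers (11 genes) summed to 467 CPM in control 3, to 1347 and 1675 CPM in controls 1 and 2 and to between 895 and 1190 CPM in atoh1b-MO samples. Neural markers (5 genes) were at 1126 CPM in control 3, at 112.7 and 147.5 CPM in the other controls and at 93.5 to 501 CPM after injection. Blood markers (4 genes) were at 50.8 CPM in control 3 but at 639 to 1266 CPM in the other 5 samples, so the sorted cells were not of otic and nephric type alone. Contrasts below are accordingly given with and without control 3. In sorted bulk samples, fewer cells of a type and less RNA per cell cannot be told apart.

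The positions of the genes are those of the deposited table, for which the submitters' processing notes name GRCz10 and the study's methods GRCz11. The gene fosab (ENSDARG00000031683) lies on chromosome 20 (46648591 to 46650720, minus strand, 4 exons after merging of transcripts) and shares exon bases with ENSDARG00000097234 on the other strand, which had at most 7 counts in any sample. On the same chromosome are jun (ENSDARG00000043531, 15653154 to 15655103, plus strand, 1 exon) and atf3 (ENSDARG00000007823, 37891754 to 37897858, plus strand, 4 exons). The Jun paralog junba (ENSDARG00000074378) has 1 exon on chromosome 1 (51098615 to 51100171, minus strand), and junbb (ENSDARG00000104773) 1 exon on chromosome 3 (7768815 to 7770219, minus strand). On chromosome 14 are egr1 (ENSDARG00000037421, 21035277 to 21039140, minus strand, 2 exons) and fosl1a (ENSDARG00000015355, 30399162 to 30407372, minus strand, 4 exons). The exons of fosl1a overlap ENSDARG00000104133, with at most 8 counts. The gene fosb (ENSDARG00000055751) has 4 exons on chromosome 18 (36788762 to 36793723, plus strand). The 8 genes are thus spread over 5 chromosomes and form no cluster.

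Among the Fos subunits, fosab, the counterpart of c-Fos, was at 159.8 CPM in control 1, 174.8 CPM in control 2 and 127.2 CPM in control 3. The injected samples atoh1b-MO 2, 4 and 5 had 75.0, 66.9 and 60.4 CPM. All 3 controls lay above all injected samples, and even the lowest control was 1.70-fold above the highest atoh1b-MO sample. The mean of controls 1 and 2 was 167 ± 10.6 CPM (SD, n = 2) against 67.4 ± 7.30 CPM (SD, n = 3) after injection, a 2.48-fold higher level in controls. With control 3 the control mean was 154 ± 24.3 CPM (SD, n = 3).

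The Fos paralog fosb was counted rarely. Its level was 1.55, 3.42 and 0.322 CPM across controls 1, 2 and 3 and 0.625, 1.75 and 1.23 CPM in atoh1b-MO 2, 4 and 5. The groups overlapped, since control 2 was the highest and control 3 the lowest of all samples. In control 3 fosb had 9 counts, which gives a 95% exact Poisson interval of 0.147 to 0.612 CPM, and in control 2 it had 128 (2.86 to 4.07 CPM). These intervals cover counting error only, as PCR copies are not independent molecules, and they do not overlap.

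The third Fos subunit, fosl1a, the counterpart of Fra-1, which lacks the strong activation domain of c-Fos in mammals, was at 3.85, 9.17 and 6.37 CPM across controls 1, 2 and 3. In atoh1b-MO 2, 4 and 5 it was at 5.50, 8.78 and 4.02 CPM. The groups overlapped fully, with controls holding both the highest and the lowest value. Controls 1 and 2 differed 2.38-fold, with exact Poisson intervals of 3.16 to 4.66 and 8.23 to 10.2 CPM that do not overlap. As PCR copies are not independent molecules, the true counting error can be wider than these intervals.

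Among the Jun subunits, junba was at 38.0, 45.3 and 35.3 CPM across controls 1, 2 and 3 and at 17.5, 15.2 and 14.8 CPM in atoh1b-MO 2, 4 and 5. Its samples followed the same order as those of fosab, from control 2 at the top to atoh1b-MO 5 at the bottom. The lowest control was 2.01-fold above the highest injected sample. This was the widest gap among the 8 genes. The mean was 41.7 ± 5.18 CPM (SD, n = 2) for controls 1 and 2 against 15.9 ± 1.45 CPM (SD, n = 3) for the injected samples.

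The paralog junbb was at 72.8, 71.8 and 43.1 CPM across controls 1, 2 and 3 and at 32.4, 36.0 and 21.5 CPM in atoh1b-MO 2, 4 and 5. Controls 1 and 2 were nearly equal, whereas control 3 was closer to the injected samples, 1.196-fold above the highest of them. JunB proteins are the weaker activators among Jun proteins in mammals and can restrain c-Jun.

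The gene jun, the counterpart of c-Jun, was at 57.1, 60.2 and 74.7 CPM across controls 1, 2 and 3 and at 48.2, 39.3 and 42.7 CPM in atoh1b-MO 2, 4 and 5. Here control 3 was the highest sample, unlike for any other of the 8 genes. The gap between the groups was narrow, with the lowest control 1.19-fold above the highest injected sample.

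The stress-responsive partner atf3 was at 10.7, 17.6 and 7.12 CPM across controls 1, 2 and 3 and at 7.61, 12.5 and 6.80 CPM in atoh1b-MO 2, 4 and 5. Its groups overlapped, with control 3 below atoh1b-MO 2 and 4. For each of the 3 genes that overlapped, fosb, fosl1a and atf3, the highest sample was control 2 and the next atoh1b-MO 4, the deepest and the shallowest library by total count.

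The zinc finger gene egr1 was at 33.7, 36.7 and 28.4 CPM across controls 1, 2 and 3 and at 14.0, 14.6 and 13.3 CPM in atoh1b-MO 2, 4 and 5. The injected samples were closely grouped, with a coefficient of variation of 4.46% (n = 3), the smallest of the 8 genes in these samples. The lowest control was 1.95-fold above the highest of them. The mean was 35.2 ± 2.15 CPM (SD, n = 2) for controls 1 and 2 against 13.96 ± 0.623 CPM (SD, n = 3) after injection.

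**Figure D1:**
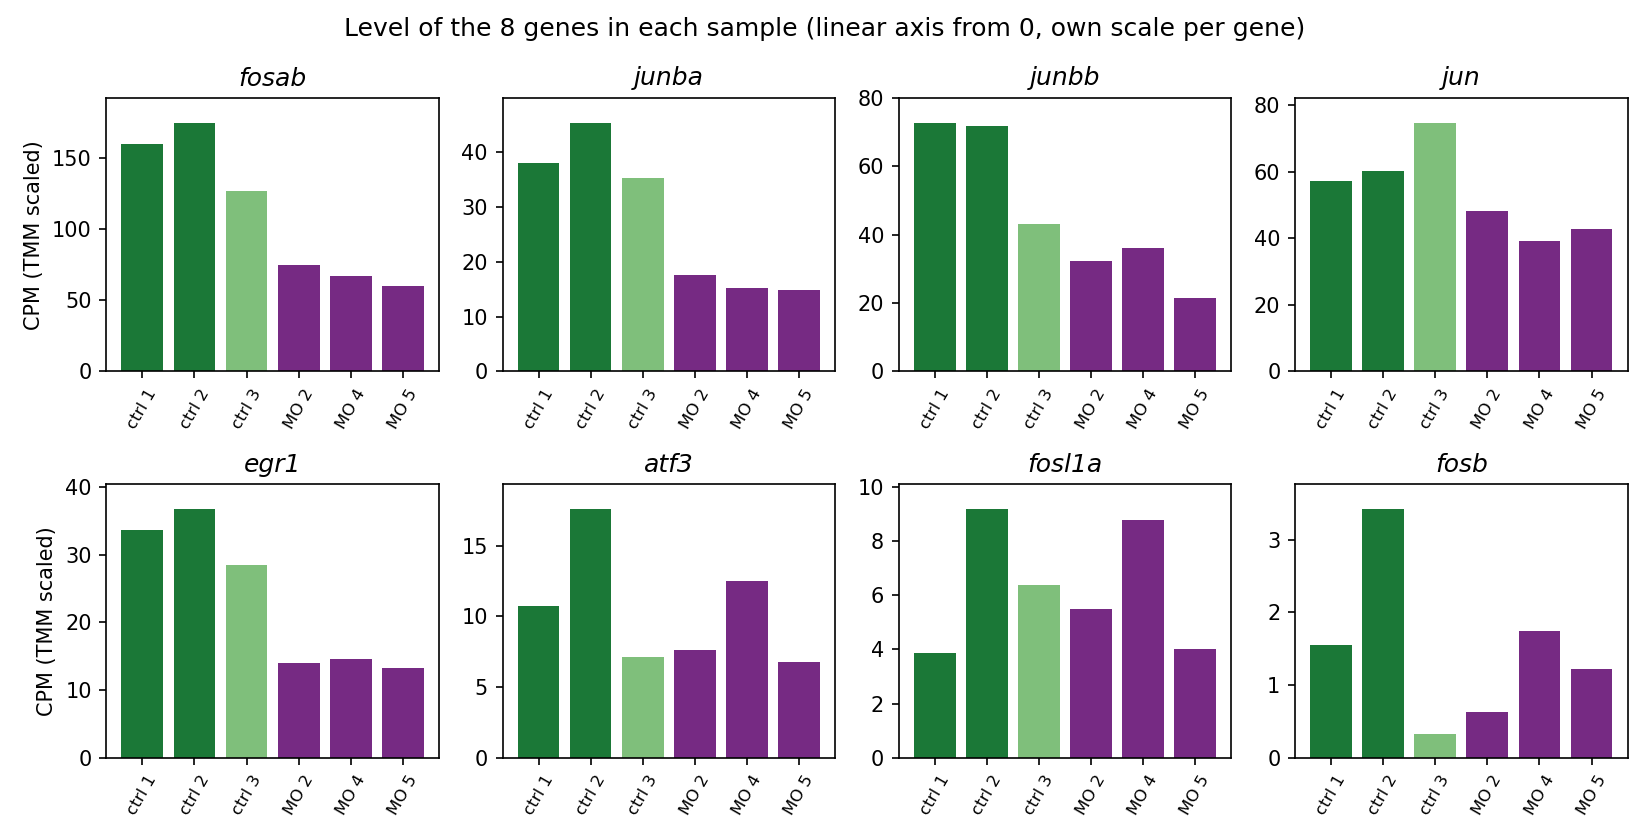
Bars show the level of each gene in CPM (TMM scaled, linear axis from 0, own scale per gene) in controls 1 to 3 (green, control 3 lighter) and atoh1b-MO 2, 4 and 5 (purple). For fosab, junba, junbb, jun and egr1 every green bar is taller than every purple bar, whereas for atf3, fosl1a and fosb the bars of both groups overlap.

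Thus 5 of the 8 genes had all 3 controls above all atoh1b-MO samples, where 5.82% of the 17874 genes tested with 6 samples did. The same 5 had controls 1 and 2 above all injected samples, as did 14.7% of the 18397 genes tested without control 3. Nothing is read from these shares, because the genes were chosen with the contrast known. Control 3 was at 1.89-fold, 2.22-fold, 2.04-fold, 1.72-fold and 1.44-fold the mean of the injected samples for fosab, junba, egr1, jun and junbb. For fosl1a and atf3 it was at 1.04-fold and 0.793-fold that mean, and for fosb at 0.268-fold. The part of cell type makeup in these values was not tested.

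Fold changes were estimated across all genes with the edgeR quasi-likelihood fit, in which differentially expressed genes (DEGs) are those with a Benjamini-Hochberg adjusted p-value below 0.1. The standard errors are derived from the test statistic. Without control 3, the log2 fold change of atoh1b-MO over control was -1.39 ± 0.14 (SE) for junba, -1.33 ± 0.13 for egr1, -1.31 ± 0.11 for fosab and -1.27 ± 0.20 for junbb. It was -1.05 ± 0.54 for fosb, -0.66 ± 0.32 for atf3, -0.43 ± 0.11 for jun and -0.10 ± 0.44 for fosl1a. All 8 were negative, with a median of -1.16 against 0.01 over all genes tested, of which 49.1% were negative. Of the 8, 5 were at or below -1, as were 2.14% of all genes tested. The median was -1.16 with DESeq2's size factors and -1.12 with library size alone, and all 8 stayed negative under both. Among the 18397 genes tested, junba, egr1, fosab and junbb held ranks 153, 177, 186 and 203 by size of fall. Among the 11952 with a mean count above 100 they held ranks 7, 8, 9 and 12. As the genes were chosen with this contrast known, nothing is read from these ranks. The sign of fosl1a turned in some fits, to 0.65 without control 2, 0.13 without atoh1b-MO 5 and 0.07 with a block for number 2, shared by control 2 and atoh1b-MO 2. The value of fosb was -0.37 without control 2, which left it above -1.

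Of the 8 genes, junba, egr1, fosab and junbb were among the 27 DEGs lower in atoh1b-MO samples, a call that 0.147% of all genes tested received. As the choice of genes used this contrast, nothing is read from the 4 or from the calls below. Leaving out control 1 left fosab alone among the DEGs, which then numbered 13 in all, leaving out control 2 left fosab and egr1, and leaving out atoh1b-MO 4 left fosab, junba and egr1. Without atoh1b-MO 2, jun joined the 4, as it did with DESeq2 and with the block for number 2.

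With all 6 samples the fold changes were -1.32 ± 0.14 for junba, -1.24 ± 0.14 for egr1, -1.19 ± 0.14 for fosab, -1.06 ± 0.27 for junbb and -0.56 ± 0.14 for jun. For fosb, atf3 and fosl1a they were -0.56 ± 0.81, -0.40 ± 0.39 and -0.09 ± 0.41. Here 4 were at or below -1, as were 3.38% of all genes, and all 8 were negative, as were 52.4%. With control 3 kept, leaving out control 2 left 5 of the 8 negative, and leaving out atoh1b-MO 5 left 7. The share of all genes called by edgeR was 0% (0 of 17874), while 1040 genes had an unadjusted p-value below 0.05, so no member was called either. On the same samples DESeq2 called 112 genes, among them fosab, junba, junbb and egr1, and limma voom with sample weights called 21, among them fosab, junba and egr1.

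**Figure D2:**
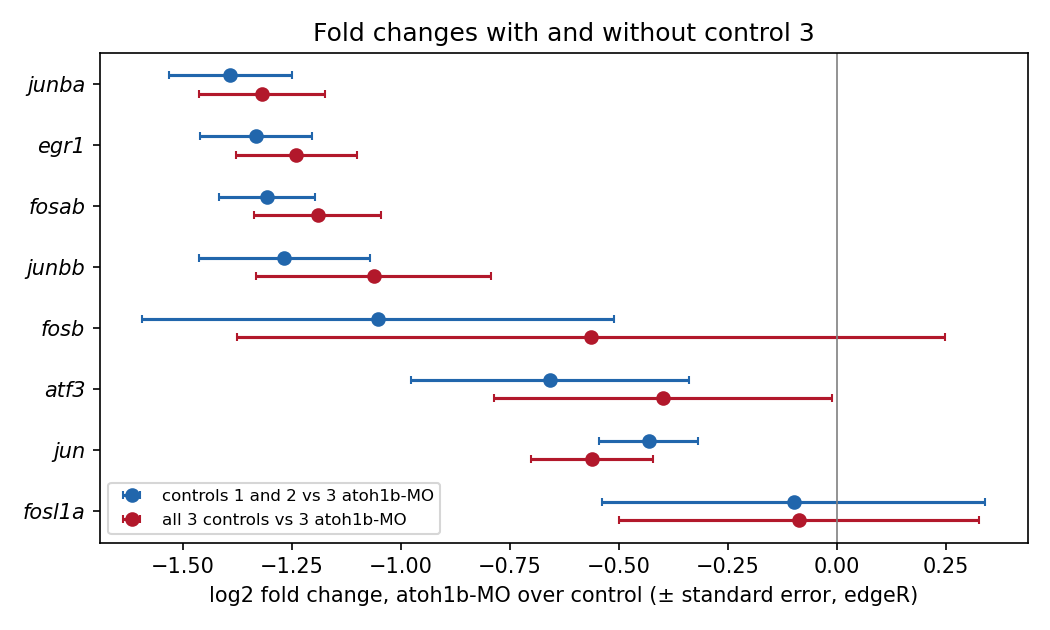
Points show the log2 fold change of atoh1b-MO over control from edgeR for each gene, and bars its standard error, without control 3 (blue) and with it (red). The estimates for junba, egr1, fosab and junbb lie between -1.39 and -1.06 in both fits, and those for fosl1a lie near 0 with wide bars.

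Levels of different genes were compared per kilobase of exon. In controls 1 and 2 fosab was the most abundant, at 98.5 ± 6.26 CPM per kilobase (SD, n = 2), followed by junbb at 51.5 ± 0.477, jun at 30.1 ± 1.11 and junba at 26.8 ± 3.33. Within each of these libraries jun was above junba, at 29.3 against 24.4 in control 1 and 30.9 against 29.1 in control 2. With n = 2 this difference was not tested. Below them came egr1 at 11.2 ± 0.680, atf3 at 5.24 ± 1.80, fosl1a at 1.63 ± 0.939 and fosb at 0.975 ± 0.520. In atoh1b-MO samples fosab was at 39.7 ± 4.30 (SD, n = 3), while jun at 22.3 ± 2.29 and junbb at 21.3 ± 5.36 did not differ beyond their spread. Among these injected samples junba was at 10.2 ± 0.931 and egr1 at 4.42 ± 0.197 CPM per kilobase.

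Among the 3 Fos genes of the 8, nearly all of the summed level per kilobase was fosab, at 93.2% to 98.4% in every sample. Fos and Jun genes outside the 8 were left out of these sums, among them FOSL2 and JUND. Across all samples FOSL2 was at 7.24 to 11.7 CPM and JUND at 6.94 to 12.1 CPM. The sum of the 3 Jun genes of the 8 was shared more evenly and its makeup varied. The share of jun was 27.8% in both controls 1 and 2, 41.8% in control 3, and 41.9%, 36.3% and 46.8% in atoh1b-MO 2, 4 and 5. For junba the share was 23.1%, 26.2% and 24.7% in controls 1, 2 and 3 and 19.1%, 17.6% and 20.4% in atoh1b-MO 2, 4 and 5. Thus control 3 lay with the injected samples in its share of jun and with the controls in its share of junba. The ratio of summed Fos to summed Jun levels per kilobase was 0.906, 0.958 and 0.836 in controls 1, 2 and 3 and 0.776, 0.760 and 0.792 in atoh1b-MO 2, 4 and 5. These ratios are formed within a sample and do not depend on scaling between samples, but they come from the contrast that chose the genes.

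**Figure D3:**
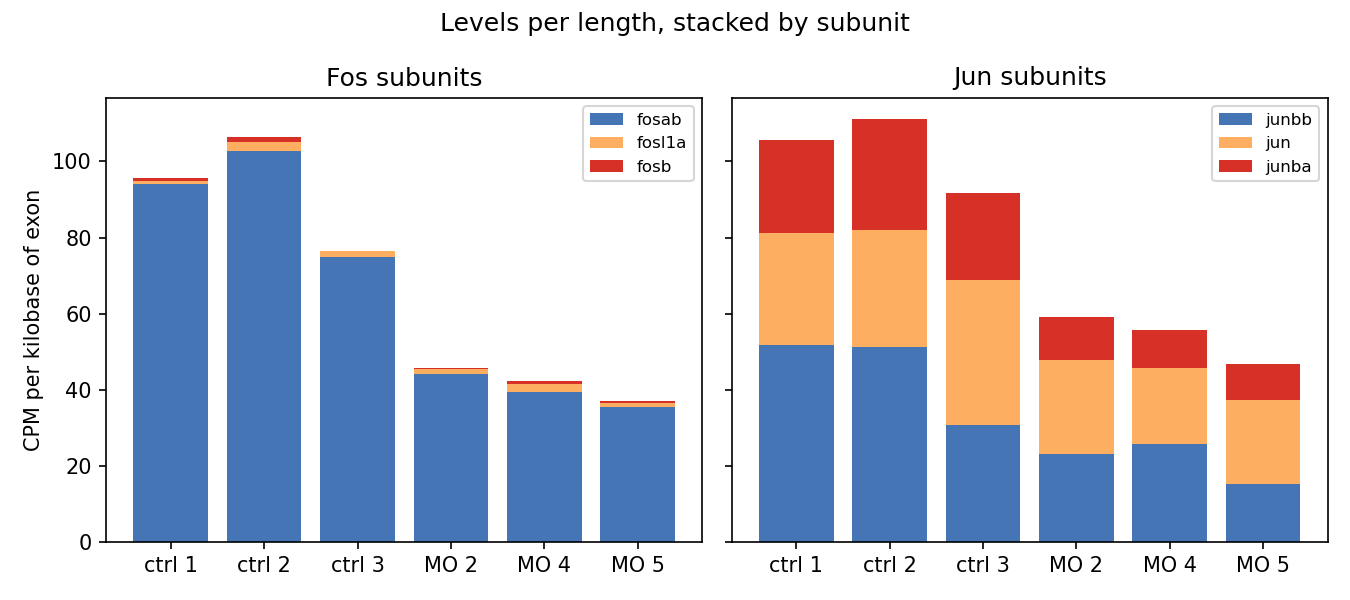
Stacked bars show the level of each Fos and Jun gene of the 8 in CPM per kilobase of exon (linear axis from 0) in every sample. Fos genes are on the left and Jun genes on the right, without family members outside the 8. The Fos bars are almost wholly fosab, and jun makes up 27.8% of the Jun bar in controls 1 and 2 but 36.3% to 46.8% in the other samples.

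Related genes outside the 8 were taken from lists by symbol. The symbol table gives many zebrafish genes the human symbol, and these are printed as it has them, with paralogs of the same symbol not told apart by name. Of all genes tested without control 3, 0.598% were DEGs in either direction. Among 14 other AP-1, Atf and Egr genes, 10 were tested and 0 were DEGs by edgeR or DESeq2 without control 3, with a median log2 fold change of -0.16 and 2 lower at an unadjusted p-value below 0.05, which 11.2% of all genes tested reached in either direction. The best counted of them, atf4b, a mediator of the integrated stress response, was at 206.3, 195.3 and 168.4 CPM across controls 1, 2 and 3 and at 187.4, 163.3 and 166.2 CPM in atoh1b-MO 2, 4 and 5. Controls 1 and 2 lay above every injected sample and control 3 did not. The change without control 3 was -0.22 and did not pass (adjusted p = 0.420, edgeR). A JDP2 gene (ENSDARG00000020133), a repressor that pairs with Jun proteins in mammals, was at 15.6, 22.1 and 17.0 CPM across controls 1, 2 and 3 and at 12.6, 13.5 and 8.50 CPM in atoh1b-MO 2, 4 and 5. All its controls lay above the injected samples, but the change of -0.71 did not pass (adjusted p = 0.348, edgeR). With 6 samples, 1 of the 9 genes tested from this list had all controls above all injected samples, as did 5.82% of all genes tested.

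Of the Egr relatives, EGR2 (ENSDARG00000042826), which marks hindbrain rhombomeres, was at 6.05, 7.19 and 75.7 CPM across controls 1, 2 and 3 and at 32.6, 3.13 and 5.24 CPM in atoh1b-MO 2, 4 and 5. Its high samples, control 3 and atoh1b-MO 2, were also those with the highest neural marker sums (1126 and 501 CPM), a list that holds EGR2 itself. Its log2 fold change was 1.04 without control 3 and -1.12 with it, and neither passed (adjusted p = 0.706 and 0.896, edgeR). The gene egr4 was at or below 1.66 CPM in every sample, with log2 fold changes of -1.63 without control 3 and -1.36 with it that did not pass (adjusted p = 0.558 and 0.860, edgeR). EGR3 was too rare to be tested, at 0.144, 0.588 and 0.251 CPM across controls 1, 2 and 3 and at most 0.122 CPM after injection. Whether these genes differ from egr1 was not tested. Neither JUND (-0.11) nor FOSL2 (-0.10) passed, with adjusted p-values of 0.883 and 0.917 (edgeR). The second JDP2 gene, BATF3, fosl1b and fosaa, all at or below 2.27 CPM in every sample, had log2 fold changes of -0.31, 0.18, 0.04 and -1.35 and adjusted p-values of 0.601 or more.

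Among 52 genes of other immediate early families, 45 were tested, 1 fell and 0 rose by edgeR, and 44 did not pass. The median log2 fold change was -0.28 and 36 of the 45 were negative, as were 49.1% of all genes tested. At an unadjusted p-value below 0.05 (edgeR), 10 were lower and 1 higher (11.2% of all genes in either direction). The gene that fell was ier2a, whose IER2 family is induced by growth factors. It was at 147.3, 118.2 and 70.23 CPM across controls 1, 2 and 3 and at 68.8, 66.6 and 73.2 CPM in atoh1b-MO 2, 4 and 5 (log2 fold change -0.93 ± 0.11, adjusted p = 0.0187, edgeR). Control 3 thus lay within the injected samples for ier2a, unlike for fosab, junba and egr1. The call was lost without control 1 (adjusted p = 0.156) and without atoh1b-MO 4 (adjusted p = 0.165), and with all 6 samples the adjusted p-value was 0.833 (edgeR). The best counted genes that did not pass were PLK3, at 401, 326 and 81.4 CPM across controls 1, 2 and 3 and 216 to 295 CPM after injection, and BTG2, at 306, 310 and 384 CPM against 265 to 283 CPM. The ier2a paralog ier2b was at 17.4, 20.0 and 19.0 CPM across controls 1, 2 and 3. In atoh1b-MO 2, 4 and 5 ier2b was at 11.1, 7.36 and 9.79 CPM. All controls lay above all injected samples for ier2b, unlike for ier2a. Its change of -0.99 without control 3 did not pass (adjusted p = 0.143, edgeR). With 6 samples, 10 of the 45 had all controls above all injected samples, as did 5.82% of all genes tested.

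Of the kinases and factors that act upstream (29 genes for MAP kinases, Ras, Srf, Elk and Creb), 28 were tested and 0 were DEGs by edgeR or DESeq2 without control 3, with a median log2 fold change of -0.19 and 1 lower at an unadjusted p-value below 0.05, against 11.2% of all genes in either direction. MAPK14 (ENSDARG00000000857), a p38 kinase gene, and CREBBP (ENSDARG00000104609), a coactivator gene, changed by -0.13 and -0.02 on this scale, with adjusted p-values of 0.633 and 0.971 (edgeR). With 6 samples, 7 of the 28 had all controls above all injected samples, as did 5.82% of all genes tested. At an unadjusted p-value below 0.05 (edgeR), 4 were then lower and 1 higher (5.82% of all genes in either direction). Among 13 feedback inhibitors and targets of Erk and Fgf signaling, all 13 fold changes were negative without control 3. Of all genes tested, 49.1% were negative, and the median of the 13 was -0.41. With all 6 samples, 10 of the 13 were negative (52.4% of all genes), with a median of -0.14 for the 13. At an unadjusted p-value below 0.05 (edgeR), 1 was then lower (5.82% of all genes in either direction). With 6 samples, 1 of the 13 had all controls above all injected samples, against 5.82% of all genes tested. Without control 3, 1 of the 13 fell and 12 did not pass, and 9 were lower at an unadjusted p-value below 0.05 (11.2% of all genes in either direction). The gene that fell was SPRY4, an inhibitor of receptor tyrosine kinase signaling, at 112.4, 96.8 and 53.1 CPM across controls 1, 2 and 3 and 72.8, 71.2 and 68.0 CPM in atoh1b-MO 2, 4 and 5 (log2 fold change -0.56 ± 0.10, adjusted p = 0.0808, edgeR). Its call was lost without control 1, control 2, atoh1b-MO 4 or atoh1b-MO 5, with adjusted p-values between 0.117 and 0.455, and with all 6 samples the adjusted p-value was 0.876. DUSP6, an Erk phosphatase gene, was at 523, 424 and 187 CPM against 312, 370 and 382 CPM, and etv5b changed by -0.16, with adjusted p-values of 0.259 and 0.555 (edgeR).

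Heat shock and stress genes (21, all tested) had a median log2 fold change of 0.02, with 1 that rose and 0 that fell. At an unadjusted p-value below 0.05 (edgeR), 5 were higher and 2 lower (11.2% of all genes in either direction). HSPA5, the chaperone of the endoplasmic reticulum, was at 172.3, 217.8 and 322 CPM across controls 1, 2 and 3 and at 408, 482 and 420 CPM in atoh1b-MO 2, 4 and 5. All controls lay below all injected samples, but the share of all genes that did so was not counted. The log2 fold change was 1.17 ± 0.13 (adjusted p = 0.0160, edgeR), and 0.103 was the adjusted p-value without control 1. With all 6 samples it was 0.731. The most abundant of these genes, an HSPA8 (ENSDARG00000068992), was at 5779 to 6738 CPM with overlapping groups, and HSPB1 changed by -0.35 (adjusted p = 0.403, edgeR). A rarer HSPA8 (ENSDARG00000037403) was at 0.504, 0.963 and 1.65 CPM across controls 1, 2 and 3. In atoh1b-MO 2, 4 and 5 this gene was at 9.41, 5.16 and 2.69 CPM. Its change of 2.95 without control 3 did not pass (adjusted p = 0.137, edgeR). With 6 samples, 1 of the 21 genes had all controls above all injected samples, against 5.82% of all genes tested.

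**Figure D4:**
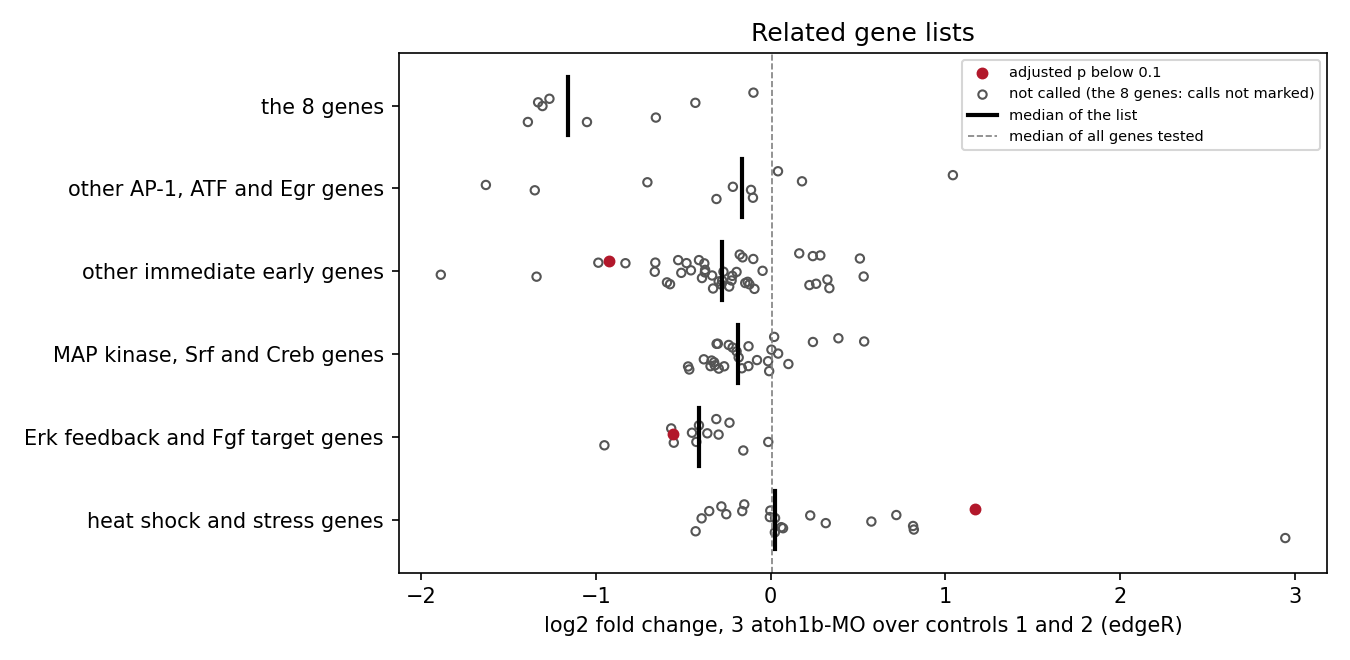
Each point is a gene, placed by its log2 fold change of the 3 atoh1b-MO samples over controls 1 and 2 (edgeR), and vertical strokes mark list medians. Filled points passed an adjusted p-value below 0.1 (ier2a, SPRY4 and HSPA5), and the 8 genes, chosen by this contrast, are drawn open without regard to their calls.

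Other measures moved with the groups as well. Without control 3, controls 1 and 2 lay apart from all injected samples in the summed level of 5 of the 11 marker lists. The sums of otic, endothelial and hair cell markers were higher in these controls, with hair cell markers (5 genes, POU4F3 at 0 in every sample) at 118 and 142 CPM against 79.2 to 108.7 CPM. Most of that sum was foxj1b, a ciliogenesis gene (log2 fold change -0.47), while both MYO7A genes had positive values (1.65 and 0.46). Endothelial markers (3 genes) were at 538 and 642 CPM against 335 to 534 CPM, mostly FLI1 (-0.51), while kdrl and cdh5 had positive values (0.14 and 0.24). None of the tested genes of the otic, endothelial, hair cell, muscle and notochord lists was a DEG by edgeR (0). Muscle markers (8 genes) were lower, at 30.0 and 31.5 CPM against 34.96 to 59.2 CPM, as were notochord markers (5 genes), at 207 and 224 CPM against 226 to 471 CPM. Among the notochord markers, both SHH genes (1.84 and 1.38) and both COL2A1 genes (0.33 and 2.10) had positive values. The notochord gene tbxta had a negative value (-0.47). The mitochondrial share of counts was 1.84% and 2.10% in controls 1 and 2 and 2.63% to 3.43% after injection. In control 3 it was 2.82%. With control 3, none of the 11 marker sums (0) and not the mitochondrial share set controls apart. The 8 genes were chosen with the contrast known, so they are not set against these measures. The part of these measures in the levels of the 8 genes was not tested.

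The genes most like the 8 were sought by Pearson correlation of log2 CPM over the 6 samples with the mean scaled profile of the 8, among 11088 other genes with a mean of at least 5 CPM. This profile averages unlike patterns, as the 28 pairs of the 8 genes had a median correlation of 0.51. The pairs ranged from -0.34, for jun and fosb, to 0.99. The profile was highest in control 2 and lowest in atoh1b-MO 5. The nearest were ENSDARG00000102589 and OGA (both r = 0.99), LRRC23 and TPP1 (both r = 0.98) and zdhhc24 (r = 0.98), and 49 genes exceeded 0.9. The points share library and group, so a high value partly restates the difference between groups, and no p-value is given. The changes of these 5 genes were small. OGA, for instance, was at 154.7, 167.6 and 139.9 CPM across controls 1, 2 and 3 and at 125.4, 129.4 and 120.2 CPM in atoh1b-MO 2, 4 and 5, a log2 fold change of -0.36 against the median of -1.16 for the 8 genes.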

How the data were processed

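The deposited values are raw read counts per Ensembl gene, not normalized. Per the labels, the submitters' processing notes name featureCounts 1.5.3 and GRCz10, whereas the study's methods describe GSNAP, a later featureCounts and GRCz11. Library preparation also differs between both sources (strand-specific in the labels, Smart-seq2 in the methods), and use of strand in counting is not stated. Exon length was deposited as other information beside the counts. Uniquely aligned reads were counted, which lowers counts of near-identical paralogs.

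The 8 genes, the lists and the tests were chosen with earlier results of these data known. The fits used edgeR 4.0.16 under R 4.3.3, with TMM scaling, filterByExpr, the quasi-likelihood test and Benjamini-Hochberg adjustment over all genes tested, without control 3 and with it. The clutch factor of the study is not in the labels. The edgeR fits were run on counts simulated from edgeR's own dispersion trend, with no divergent sample. This cannot show how the fits behave with control 3. Alternatives comprised other scalings, other filters on low counts, DESeq2 (version 1.42.0), limma voom (version 3.58.1), a threshold of 0.05, a term for the samples numbered 2, and leaving out each replicate. Symbols were available for 26433 of 32266 genes, and list genes were matched by exact symbol or without a final a or b. Genes were named from each list if called (at most 5), with the 2 best counted of the others, and all tested genes of the AP-1, Atf and Egr list. The genes ier2b and the rarer HSPA8 were added after seeing the data. EGR3, which was not tested, was also named outside this rule. For likeness a prior count of 2 was used. The 92 spike-ins had 0 counts. No promoter or protein sequence was analysed here. Results for 1 further list are not reported here.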

Additional observations from a re-analysis of the deposited data

How the results depend on the processing

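Without control 3, edgeR called 110 DEGs. The number was 690 with DESeq2, 488 when genes of low count were kept, 713 with a replicate block for the samples numbered 2, and 71 at an adjusted p-value below 0.05. It ranged from 13 to 260 over the 5 fits that left out 1 replicate each. Fits without a control rest on 1 control, assumed to vary like the other group. With all 6 samples edgeR called 0 (1040 genes at an unadjusted p-value below 0.05), DESeq2 called 112 and voom 21, and leaving out a replicate gave 0 to 110, the 110 without control 3. The cause was not tested. The groups share the number 2 only, so the numbers do not pair the samples, and with 6 samples this block gave 0. Over 12 alternative fits without control 3, fosab was called in 12, egr1 in 11, junba in 10, junbb in 9, jun in 3, and atf3, fosb and fosl1a in 0, which restates how they were chosen and is no sign of stability. Apart from fosl1a, which turned to 0.0652 with the block, 0.6544 without control 2 and 0.1281 without atoh1b-MO 5 and was -0.5918 without control 1, the 8 genes kept a negative sign in all 12, from -1.39 to -1.24 for fosab and from -1.51 to -0.37 for fosb. In a comparison added after seeing the data, the number of called genes over these fits was 0 to 6, 0 to 7 and 0 to 6 in the lists of other immediate early, Erk and Fgf, and stress genes, and 0 in the lists of other AP-1, Atf and Egr genes and of upstream kinases and factors. Depth limits fosb most, with 9 to 128 counts. For the genes most like the 8, Spearman correlation and a prior count of 0.5 kept all 5 values above 0.97.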
